A study of Mus musculus with 12 samples.

Results

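The D and E cyclins and the kinases they activate were 8 genes of the 41128 in the count table, taken by their gene symbols: Ccnd1, Ccnd2, Ccnd3, Ccne1, Ccne2, Cdk2, Cdk4 and Cdk6. Their RNA was measured by RNA-Seq in PreMegEs, the bone marrow progenitors that give rise to megakaryocytes and erythroid cells. Each of 4 groups had 3 libraries, and the cells of 3 mice were pooled for each library. All mice were C57BL/6 and 12 to 16 weeks old. WT PreMegEs came from wild type mice. P2+ and P2- PreMegEs came from Runx1 P1-GFP::P2-hCD4/+ mice, in which 1 allele of Runx1 reports its distal promoter (P1) as GFP and its proximal promoter (P2) as human CD4 on the cell surface. Both were GFP+ and were separated by hCD4, so the reporter allele is shared by P2+ and P2- and absent from WT. RUNX1C KO PreMegEs came from mice without RUNX1C, the isoform made from P1, while expression from P2 is retained. The labels of WT and RUNX1C KO name no P2 fraction. In reporter mice the study found both P2- and P2+ cells among PreMegEs. WT and RUNX1C KO are therefore read as whole PreMegE populations, beside the sorted fractions P2+ and P2-. The cells were sorted as lineage-, Sca1-, cKit+, CD41-, CD16/32-, Endoglin- and CD150+. Whether the RUNX1C KO libraries were prepared and sequenced together with the others is not given in the sources used here.

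D-type cyclins bind CDK4 and CDK6 and carry signals from outside the cell to the cell cycle. The active kinases phosphorylate RB and its relatives, which releases E2F factors. E-type cyclins then bind CDK2 and drive entry into S phase. Megakaryocytes are known for endomitosis, in which DNA is replicated repeatedly without cell division, and both D-type and E-type cyclins are known to take part in it, while erythroid progenitors go through rapid divisions that end as the cells mature.

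The libraries held between 10726098 and 14445026 counts, and 3 counts, the limit that a count of 0 allows, corresponded to between 0.208 and 0.280 CPM (CPM, the count relative to the size of the library, scaled by edgeR's TMM method over all 12 libraries). All 8 genes were far above this limit in each library and passed the filter on low counts in each comparison. Runx1 was at 211 ± 7.34 CPM in P2-, 369 ± 15.6 in WT, 631 ± 24.2 in P2+ and 360 ± 20.4 in RUNX1C KO PreMegEs (SD, n = 3 each). The Runx1 count joins the transcripts of both promoters, so it checks nothing about the loss of RUNX1C. Replicate 2 of P2- and replicate 2 of P2+ stood apart, with 13598.7 and 9224.84 CPM summed over 12 immediate early genes such as Fos, against 204.6 to 1314 CPM in the other 10 libraries. The fold changes, shares, ratios and gene list counts of P2+ against P2- are also given without both, and calls of the 8 genes that changed without one of them are named. Kit, which marks the sorted progenitors, was at 814 CPM in P2+, 1059 in P2-, 933 in WT and 1087 in RUNX1C KO PreMegEs. Itga2b, which encodes CD41 and was selected against at the surface, was at 282 CPM in P2+, 51.0 in P2-, 156 in WT and 115 in RUNX1C KO PreMegEs.

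Groups were compared with edgeR's quasi-likelihood F-test, with Benjamini-Hochberg adjustment over all genes tested, and a gene was called at an adjusted p under 0.05. The 6 comparisons share libraries, so their values stand side by side and do not support each other. Many genes differed between the groups, and the members' calls are read against that background. Between P2+ and P2- PreMegEs 4 of the 8 genes were called, against 37.1% of 12836 genes tested. Of these, 3 were higher (20.1% of all genes were) and 1 was lower (17.0% of all genes were). With a minimum of 2-fold, 3 of the 8 were called (12.7% of all genes were). With the replicate number added to the fit as a block and no minimum, 4 were higher and 2 lower, against 50.7% of all genes called. Between P2+ and WT PreMegEs 3 were called (16.5% of 12941 genes), 2 higher (9.45%) and 1 lower (7.07%), and 0 with the 2-fold minimum (3.84%). Between P2- and WT PreMegEs 3 were called (16.5% of 12767 genes), 1 higher (6.85%) and 2 lower (9.60%), and 1 with the 2-fold minimum (4.68%). Between RUNX1C KO and WT PreMegEs 3 were called (14.9% of 12784 genes), 1 higher (6.18%) and 2 lower (8.76%), and 0 with the 2-fold minimum (3.41%). Between RUNX1C KO and P2- PreMegEs 1 was called (1.61% of 12588 genes), which was higher (1.33%), while 0 were lower (0.278%) and 0 passed the 2-fold minimum (0.508%). Between RUNX1C KO and P2+ PreMegEs 4 were called (37.1% of 12807 genes), 2 higher (16.7%) and 2 lower (20.3%), and 0 with the 2-fold minimum (11.4%). With 8 genes, none of these counts sets the cyclins and kinases apart from the background, and the values of each member follow.

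**Figure D1:**
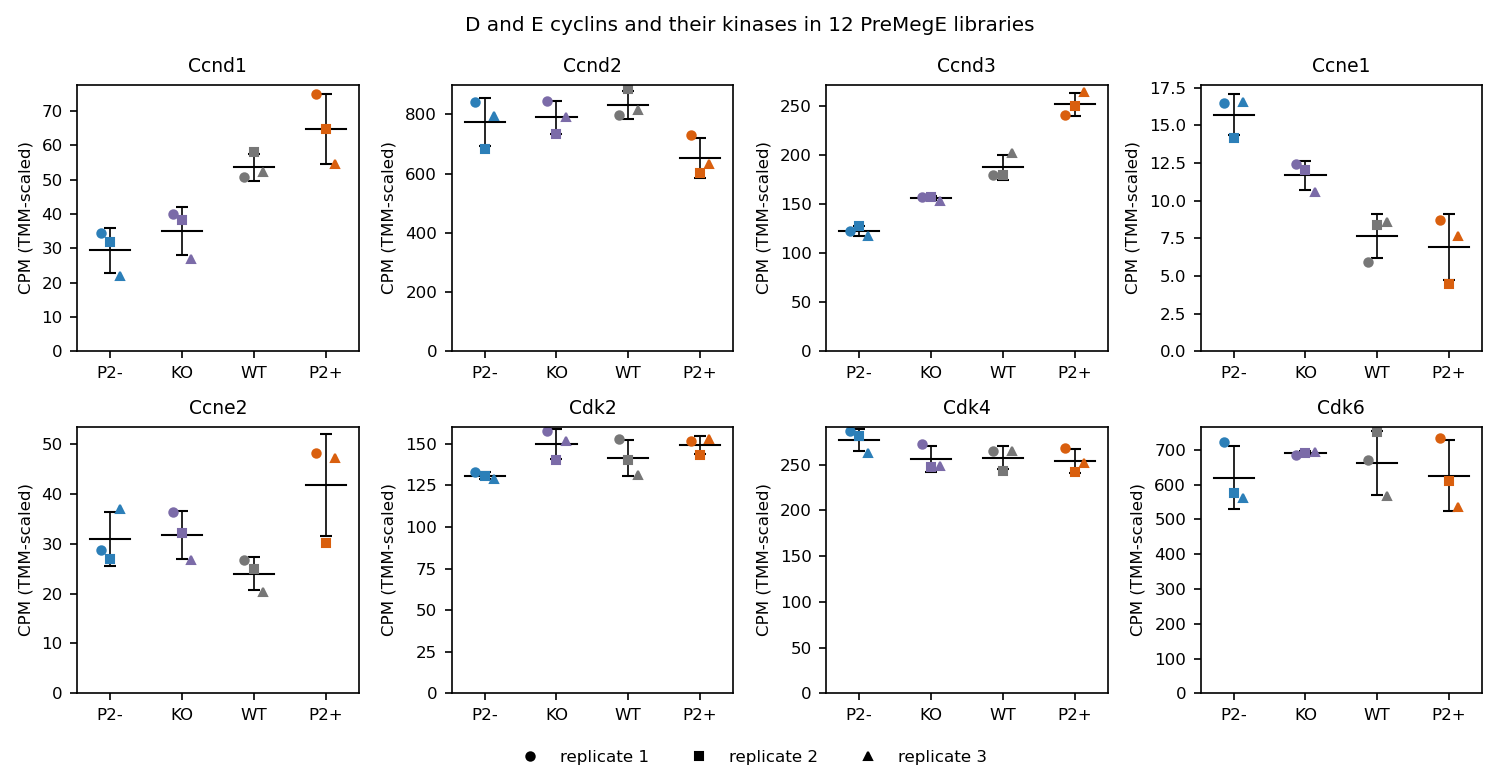
TMM-scaled CPM of the 8 genes in each library, by group; points are libraries (the shape gives the replicate number), the horizontal line is the mean and the error bar the SD of 3 libraries. Ccnd3 climbs from P2- (123 CPM) through KO (157) and WT (188) to P2+ (252) with no overlap between groups, while Ccne1 runs from 15.7 CPM in P2- down to 6.94 in P2+, and Cdk4 and Cdk6 overlap between all groups.

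Ccnd3, the D cyclin encoded on chr17:47505051-47599691 (GRCm38, plus strand, ENSMUSG00000034165), separated all 4 groups. It was at 123.1, 128.3 and 117.7 CPM in the P2- libraries and at 158.0, 157.7 and 153.9 CPM in the RUNX1C KO libraries. It was at 180.3, 180.1 and 202.6 CPM in the WT libraries and at 241.0, 250.2 and 264.9 CPM in the P2+ libraries. Each group lay wholly above the one before it, and the SD was at most 6.89% of the mean in any group. Ccnd3 was 2.07-fold higher in P2+ than in P2- PreMegEs (on the log2 scale 1.05, standard error 0.07, edgeR adjusted p = 1.59e-05). It was 1.35-fold higher in P2+ than in WT PreMegEs (0.43, standard error 0.08, edgeR adjusted p = 0.00523). It fell by 0.61 on the log2 scale from WT to P2- PreMegEs (standard error 0.08, edgeR adjusted p = 0.000682) and by 0.27 from WT to RUNX1C KO PreMegEs (standard error 0.07, edgeR adjusted p = 0.00952). RUNX1C KO PreMegEs were 1.27-fold higher than P2- (0.34, standard error 0.07, edgeR adjusted p = 0.0330) and 1.62-fold lower than P2+ PreMegEs (-0.70, standard error 0.07, edgeR adjusted p = 2.48e-05). Without both libraries of replicate 2 the log2 fold change between P2+ and P2- was 1.10 (edgeR adjusted p = 8.11e-07). The call between RUNX1C KO and P2- was the least firm: it was lost when P2- replicate 1 or 3 or any 1 of the 3 RUNX1C KO libraries was left out (log2 fold change 0.31 to 0.38 over the 6 libraries left out, edgeR adjusted p from 0.00408 to 0.153), and that between RUNX1C KO and WT was lost without RUNX1C KO replicate 3 (-0.26, adjusted p = 0.0546, range 0.00809 to 0.0546).

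Some reads of Ccnd3 may be counted elsewhere. Ccnd3-ps (ENSMUSG00000080708, chr4:139345300-139346180, minus strand) is a processed pseudogene, a copy of the spliced mRNA without introns, and matched the Ccnd3 transcript over 881 bases with 96.3% identity. It held between 845 and 2286 counts per library, against 1335 to 3624 for Ccnd3, and its total over the 12 libraries was 66.6% of that of Ccnd3. In the P2- libraries the Ccnd3-ps counts were 1148, 845 and 1221, and in the P2+ libraries they were 2132, 2239 and 2286. The libraries of these groups did not overlap, as for Ccnd3. Reads were placed by Bowtie2, which does not split a read across an intron, and how reads with several possible places were counted is not given in the sources used here. The part of this in the counts was not tested. With the counts of both added, P2+ exceeded P2- by 1.02 on the log2 scale (standard error 0.07, edgeR adjusted p = 1.48e-05), against 1.05 for Ccnd3 alone. The sum differed between RUNX1C KO and WT by -0.23 (edgeR adjusted p = 0.0206), and each of the 6 comparisons kept its direction and its call with the sum. Levels of Ccnd3 relative to other genes are therefore less certain than its differences between groups.

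**Figure D2:**
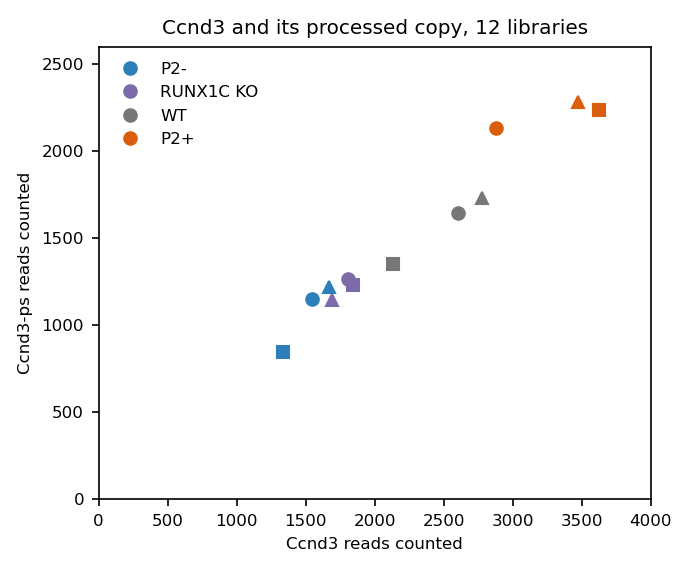
Reads counted on Ccnd3 (horizontal axis) and on its processed copy Ccnd3-ps (vertical axis) in each of the 12 libraries, coloured by group; the shape gives the replicate number. The counts rise together, with P2- replicate 2 lowest in both (1335 and 845) and the P2+ libraries highest.

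Ccnd1, the D cyclin best known as a target of growth factor signals (chr7:144929931-144939925, minus strand, ENSMUSG00000070348), was low and followed the same order of means. It was at 34.5, 31.7 and 22.1 CPM in the P2- libraries and at 40.0, 38.1 and 27.0 CPM in the RUNX1C KO libraries. The WT libraries were at 50.7, 58.1 and 52.1 CPM, and the P2+ libraries at 75.0, 64.8 and 54.4 CPM. P2- overlapped RUNX1C KO and WT overlapped P2+, but the former pair lay wholly below the latter. Ccnd1 was 2.22-fold higher in P2+ than in P2- PreMegEs (on the log2 scale 1.15, standard error 0.18, edgeR adjusted p = 0.00130), and the log2 fold change was 1.22 without both libraries of replicate 2. It fell by 0.87 on the log2 scale from WT to P2- PreMegEs (standard error 0.15, edgeR adjusted p = 0.00399) and by 0.62 from WT to RUNX1C KO PreMegEs (standard error 0.13, edgeR adjusted p = 0.00226). It was also lower in RUNX1C KO than in P2+ PreMegEs (-0.90, standard error 0.15, edgeR adjusted p = 0.00110). Of the neighbours in this order RUNX1C KO and WT differed, as given above, while the other pairs did not pass. P2+ against WT gave a log2 fold change of 0.28 (95% confidence interval 0.02 to 0.54, edgeR adjusted p = 0.138), which passed only without P2+ replicate 3 (0.38, adjusted p = 0.0459, range 0.0459 to 0.410), and RUNX1C KO against P2- gave 0.25 (-0.16 to 0.66). Exons of LTO1 on the other strand cover 23.4% of the exonic bases of Ccnd1, and without knowledge of the strand setting reads there cannot be told apart.

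Ccnd2 (chr6:127125162-127152193, minus strand, ENSMUSG00000000184) was the most abundant D cyclin in PreMegEs in CPM and per kilobase of all annotated exons, and ran against Ccnd3 between P2+ and WT. With the lengths of the longest protein-coding transcripts Ccnd2 was not the most abundant by the mean of P2+ PreMegEs, though it was in P2+ replicate 1. It was at 841.6, 683.0 and 794.3 CPM in the P2- libraries and at 844.0, 734.3 and 790.9 CPM in the RUNX1C KO libraries. The WT libraries were at 796.5, 885.6 and 815.6 CPM, and the P2+ libraries at 729.1, 600.5 and 631.5 CPM. All P2+ libraries were below all WT and all RUNX1C KO libraries, while the other 3 groups overlapped. Ccnd2 was 1.27-fold lower in P2+ than in WT PreMegEs (on the log2 scale -0.35, standard error 0.08, edgeR adjusted p = 0.0156), a call that was lost without WT replicate 2 (-0.30) or P2+ replicate 3 (-0.32) and with edgeR's exact test (adjusted p = 0.0851, range 0.000685 to 0.0851). It was 1.20-fold higher in RUNX1C KO than in P2+ PreMegEs (0.26, standard error 0.08, edgeR adjusted p = 0.0258), which was lost without P2+ replicate 2 (0.20) or 3 (0.23), without RUNX1C KO replicate 1 (0.21) or 3 (0.26) and with the exact test (adjusted p = 0.0972). P2+ against P2- gave -0.23 on the log2 scale (95% confidence interval -0.46 to 0.00, edgeR adjusted p = 0.112). In these 2 groups libraries of the same replicate number deviated together, and with the replicate number as a block in the edgeR fit Ccnd2 was called (-0.23, adjusted p = 0.00134, range 0.00134 to 0.374), as it was without P2- replicate 2 (-0.31, adjusted p = 0.0309). Without both libraries of replicate 2 the value was -0.24 (edgeR adjusted p = 0.0663). The blocked fit called 6 of the 8 genes, against 50.7% of all genes, with Ccnd2 and Ccne2 added to the 4. Within each pair of libraries Ccnd2 was lower in P2+ (729.1 and 841.6, 600.5 and 683.0, 631.5 and 794.3 CPM).

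**Figure D3:**
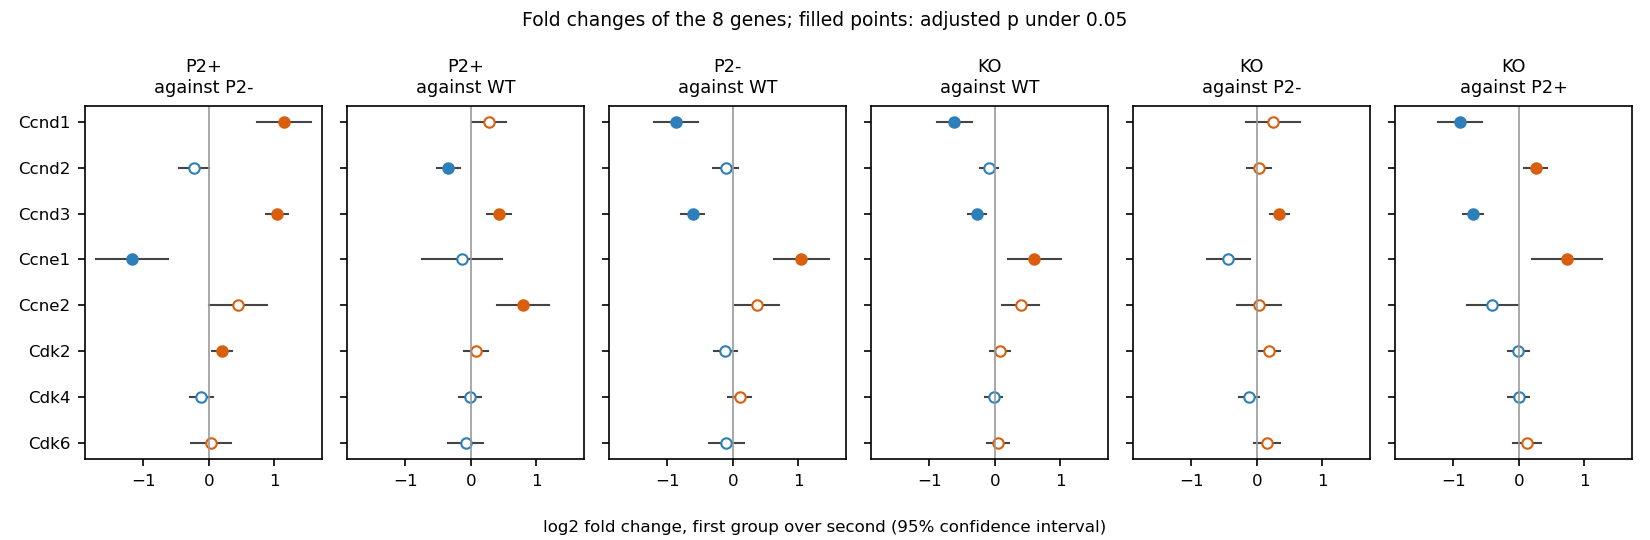
Log2 fold change of each gene (first group over second) with its 95% confidence interval in the 6 comparisons; KO is RUNX1C KO, filled points had an edgeR adjusted p under 0.05, and open points did not. Ccnd1 and Ccnd3 lie to the right and Ccne1 to the left for P2+ against P2- (1.15, 1.05 and -1.17), and the intervals of Cdk4 and Cdk6 cross 0 in all 6 panels.

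The make-up of the D cyclin transcripts was compared on a scale that does not depend on library size, and its means differed most between P2+ and P2- PreMegEs. RPKM (CPM per kilobase of exonic length) of the 3 genes was expressed as a share of their sum in each library. Ccnd2 made up 80.7%, 77.3% and 82.3% of the sum in the P2- libraries and 77.2%, 75.0% and 78.3% in the RUNX1C KO libraries. It made up 73.0%, 74.1% and 71.7% in the WT libraries and 64.1%, 60.1% and 61.6% in the P2+ libraries. Only P2- and RUNX1C KO overlapped. Ccnd3 made up 13.8% ± 1.57 in P2-, 16.4% ± 0.882 in RUNX1C KO, 17.7% ± 1.47 in WT and 25.8% ± 2.68 in P2+ PreMegEs (SD, n = 3 each). Ccnd1 made up 6.12% ± 1.37, 6.81% ± 1.29, 9.38% ± 0.296 and 12.3% ± 1.42 in the same order. With this length the sum itself overlapped between P2- (93.9 to 110.8 RPKM), RUNX1C KO (104.1 to 116.2), P2+ (106.1 to 120.9) and WT PreMegEs (116.0 to 127.0), except that all P2- libraries were below all WT libraries. Of the 18 comparisons of a share between groups, 14 had no overlap, each with an exact two-sided permutation p of 0.1, the smallest that 3 libraries against 3 allow (0.155 after Benjamini-Hochberg adjustment over the 48 tests of shares and ratios). Without both libraries of replicate 2, P2+ less P2- was 6.30 points for Ccnd1, -18.7 for Ccnd2 and 12.4 for Ccnd3. The 3 shares of a library sum to 100%, so these tests are not independent.

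**Figure D4:**
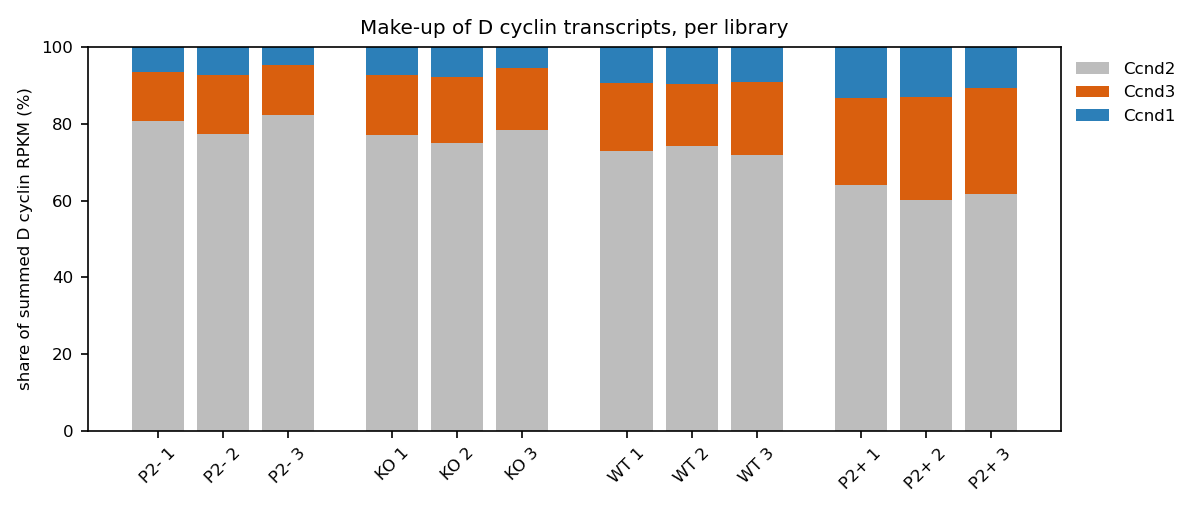
Share of Ccnd1, Ccnd2 and Ccnd3 in their summed RPKM (vertical axis, %) in each of the 12 libraries, grouped by population; KO is RUNX1C KO. The Ccnd2 share is 77.3% to 82.3% in P2- and 60.1% to 64.1% in P2+ libraries, and the space it leaves is taken by both Ccnd3 and Ccnd1.

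The length used for Ccnd3 sets its level in this sum. Its 21 annotated transcripts cover 8775 exonic bases, while its longest protein-coding transcript has 2113. With the longest protein-coding transcripts the Ccnd3 share was 31.0% ± 2.83 in P2- and 49.8% ± 3.54 in P2+, and the Ccnd2 share was 64.8% ± 3.35 and 43.0% ± 2.80 (SD, n = 3 each). By the means Ccnd2 was thus no longer the larger of these in P2+ PreMegEs. In P2+ replicate 1 it still was, at 46.2% against 45.8% for Ccnd3. With the Ccnd3-ps counts added to Ccnd3, its share was 21.3% ± 1.59 in P2- and 36.7% ± 2.57 in P2+ PreMegEs. The order of the 4 group means of the Ccnd3 share was the same under each of these. The overlap of the sums depended on these choices. The P2+ libraries lay wholly above the P2- libraries with the longest transcripts (177.1 to 197.7 against 149.6 to 174.1 RPKM), with the longest protein-coding transcripts (230.6 to 249.3 against 177.1 to 200.4) and with Ccnd3-ps added (123.7 to 141.2 against 103.2 to 121.2). The RUNX1C KO libraries lay wholly below the WT libraries under the same 3, by the narrowest margin with Ccnd3-ps added (116.1 to 128.8 against 129.0 to 140.0 RPKM).

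The E cyclins, which activate CDK2, differed in their order over the groups. Against WT the means of both were higher in P2- and in RUNX1C KO PreMegEs. Between P2+ and P2- they ran in opposite directions, where Ccne2 did not pass. Ccne1 (chr7:38097984-38107534, minus strand, ENSMUSG00000002068) was low and ran in the opposite order to Ccnd3. It was at 16.5, 14.1 and 16.5 CPM in the P2- libraries and at 12.4, 12.1 and 10.6 CPM in the RUNX1C KO libraries. It was at 5.96, 8.36 and 8.60 CPM in the WT libraries and at 8.71, 4.49 and 7.63 CPM in the P2+ libraries. The P2- libraries were above all others and the RUNX1C KO libraries above all WT and P2+ libraries, while WT and P2+ overlapped. These are 65 to 234 reads per library, so its counting error is larger than that of the D cyclins. Ccne1 was 2.25-fold lower in P2+ than in P2- PreMegEs (on the log2 scale -1.17, standard error 0.24, edgeR adjusted p = 0.00536), and the log2 fold change was -0.99 without both libraries of replicate 2. It was 2.06-fold higher in P2- than in WT PreMegEs (1.04, standard error 0.19, edgeR adjusted p = 0.00482). Both of these calls held with each library left out in turn.

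Ccne1 was 1.52-fold higher in RUNX1C KO than in WT PreMegEs (on the log2 scale 0.61, standard error 0.19, edgeR adjusted p = 0.0426). This call was lost when any 1 library but WT replicate 3 was left out (0.45 to 0.68, edgeR adjusted p from 0.0610 to 0.151, against 0.70 and 0.0360 without WT replicate 3) and with all 12 libraries in the fit (adjusted p = 0.112). It was 1.67-fold higher in RUNX1C KO than in P2+ PreMegEs (0.74, standard error 0.24, edgeR adjusted p = 0.0327), a call lost without P2+ replicate 2 (0.50) and without any 1 of the RUNX1C KO libraries (0.70, 0.72 and 0.81). RUNX1C KO and P2- PreMegEs did not overlap, with a log2 fold change of -0.43 (95% confidence interval -0.76 to -0.11) that did not pass (edgeR adjusted p = 0.189). WT and P2+ PreMegEs gave -0.14 (-0.75 to 0.47).

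Ccne2 (chr4:11191351-11204779, plus strand, ENSMUSG00000028212) was higher than Ccne1 in each library and had a different order. It was at 28.8, 26.9 and 37.0 CPM in the P2- libraries and at 36.4, 32.2 and 26.7 CPM in the RUNX1C KO libraries. The WT libraries were at 26.8, 24.9 and 20.3 CPM, and the P2+ libraries at 48.1, 30.0 and 47.1 CPM. The WT mean was the lowest, all P2+ libraries were above all WT libraries, and replicate 2 of P2+ was well below the other 2. All P2- libraries were also above WT, by a narrow margin and with a log2 fold change that did not pass (0.37, edgeR adjusted p = 0.131). Ccne2 was 1.74-fold higher in P2+ than in WT PreMegEs (on the log2 scale 0.80, standard error 0.18, edgeR adjusted p = 0.0134), and this was lost without WT replicate 3 (0.69, adjusted p = 0.0591, range 0.000249 to 0.0591). P2+ against P2- gave 0.44 on the log2 scale (95% confidence interval 0.00 to 0.89, edgeR adjusted p = 0.109). It passed with the replicate block (0.43, adjusted p = 0.00639), without P2+ replicate 2 (0.64, adjusted p = 0.0110) and without both libraries of replicate 2 (0.56, adjusted p = 0.00713), over a range of 0.00639 to 0.294. RUNX1C KO against WT lay just outside the threshold (0.40, standard error 0.13, edgeR adjusted p = 0.0536) and passed without WT replicate 1 (0.48) or RUNX1C KO replicate 3 (0.51), with the exact test (adjusted p = 0.0447) and without a filter on low counts (0.0157), over a range of 0.0157 to 0.246. RUNX1C KO against P2+ (-0.40, edgeR adjusted p = 0.102) passed without P2+ replicate 2 (-0.60, adjusted p = 0.00145) and without a filter on low counts (-0.39, adjusted p = 0.0476), over a range of 0.00145 to 0.302. Exons of Ints8 on the other strand cover 17.4% of the exonic bases of Ccne2.

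The balance of the E cyclins was compared within each library as the log2 ratio of Ccne1 to Ccne2 in CPM. There were 0.572, 0.525 and 0.447 reads of Ccne1 per read of Ccne2 in the P2- libraries, and 0.181, 0.149 and 0.162 in the P2+ libraries. The mean log2 ratio was -0.96 ± 0.18 in P2-, -1.43 ± 0.11 in RUNX1C KO, -1.65 ± 0.46 in WT and -2.59 ± 0.13 in P2+ PreMegEs (SD, n = 3 each). P2+ lay below and P2- above all other groups, and RUNX1C KO overlapped WT. The difference between P2+ and P2- was -1.63 (exact two-sided permutation p = 0.1, adjusted 0.155). The ratios of Ccnd1 and of Ccnd3 to Ccnd2 differed between the same groups by 1.39 and 1.28 on the log2 scale, also without overlap (exact permutation p = 0.1 each, adjusted 0.155). Without both libraries of replicate 2 these 3 differences were -1.55, 1.48 and 1.34. Over all 30 comparisons of a ratio, 17 had no overlap.

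**Figure D5:**
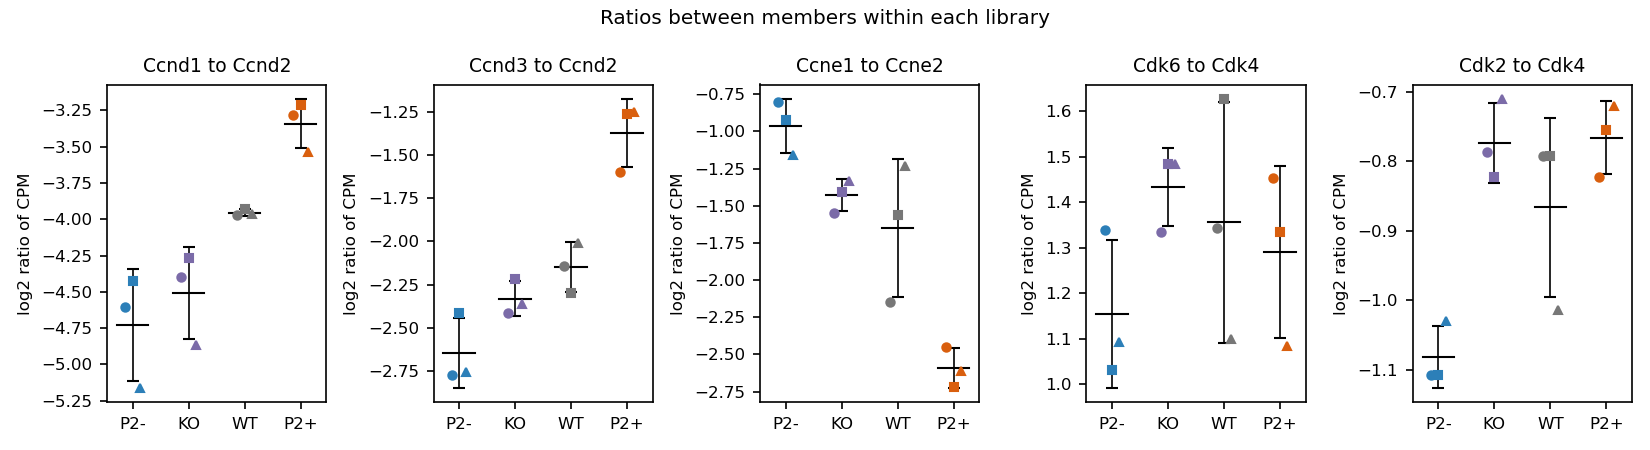
Log2 ratios of CPM between pairs of members within each library, by group; points are libraries (the shape gives the replicate number), the line is the mean and the bar the SD of 3 libraries, and each panel has its own vertical axis, which does not start at 0. For Ccne1 to Ccne2 the mean runs from -0.96 in P2- to -2.59 in P2+, opposite to Ccnd3 to Ccnd2 (-2.65 to -1.37), while Cdk6 to Cdk4 overlaps between P2- and P2+.

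The kinases changed little. Cdk2 (chr10:128697939-128705031, minus strand, ENSMUSG00000025358), the partner of the E cyclins, was at 132.7, 130.5 and 128.6 CPM in the P2- libraries and at 151.6, 143.1 and 153.0 CPM in the P2+ libraries, with no overlap. It was at 152.9, 140.4 and 131.0 CPM in the WT libraries and at 157.6, 139.9 and 151.8 CPM in the RUNX1C KO libraries, which overlapped each other and P2+. The RUNX1C KO libraries were also above all P2- libraries. Cdk2 was 1.15-fold higher in P2+ than in P2- PreMegEs (on the log2 scale 0.21, standard error 0.07, edgeR adjusted p = 0.0392). This call held when P2+ replicate 2 was left out (0.24, edgeR adjusted p = 0.0415) and was lost when any 1 of the other 5 libraries was (0.19 to 0.21, edgeR adjusted p from 0.0773 to 0.113), with the exact test (adjusted p = 0.178) and without a filter on low counts (0.116). With both libraries of replicate 2 left out it was 0.25 and passed (edgeR adjusted p = 0.0361). RUNX1C KO against P2- was of the same size (0.19, 95% confidence interval 0.04 to 0.35) and did not pass (edgeR adjusted p = 0.222). In the other 4 comparisons the log2 fold change was between -0.11 and 0.08.

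Cdk4 (chr10:127063534-127067920, plus strand, ENSMUSG00000006728) and Cdk6 (chr5:3341485-3531008, plus strand, ENSMUSG00000040274), the partners of the D cyclins, were called in none of the 6 comparisons by edgeR or DESeq2, and neither reached an unadjusted p under 0.05 in edgeR's quasi-likelihood test. Cdk4 was at 286.2, 281.2 and 262.7 CPM in the P2- libraries and at 268.1, 241.4 and 252.0 CPM in the P2+ libraries. It was at 264.8, 243.2 and 264.9 CPM in the WT libraries and at 272.0, 247.6 and 248.3 CPM in the RUNX1C KO libraries. All groups overlapped. Within each pair of libraries of the same number Cdk4 was lower in P2+ than in P2-, with a log2 fold change of -0.11 (edgeR adjusted p = 0.289, and 0.111 with the replicate block) that was -0.05 without both libraries of replicate 2. The largest difference, between RUNX1C KO and P2- PreMegEs, was -0.12 on the log2 scale (95% confidence interval -0.27 to 0.04). Exons of Tspan31 on the other strand cover 19.7% of the exonic bases of Cdk4.

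Cdk6 was at 723.8, 575.1 and 560.2 CPM in the P2- libraries and at 734.1, 609.4 and 534.3 CPM in the P2+ libraries. It was at 671.5, 751.1 and 567.3 CPM in the WT libraries and at 685.6, 692.1 and 694.5 CPM in the RUNX1C KO libraries. The SD was 13.9% to 16.1% of the mean in P2-, P2+ and WT and 0.667% in RUNX1C KO PreMegEs, and all groups overlapped. P2+ against P2- gave a log2 fold change of 0.03 (95% confidence interval -0.28 to 0.33), or 0.0085 without both libraries of replicate 2, and the largest, RUNX1C KO against P2-, gave 0.15 (-0.05 to 0.35). RUNX1C KO against P2+ (0.13) passed only without P2+ replicate 1 (0.26, edgeR adjusted p = 0.0198, range 0.0198 to 0.854). The Cdk6 to Cdk4 ratio lay between 2.05 and 3.09 in the 12 libraries, and no pair of groups was free of overlap. The ratio of Cdk2 to Cdk4 was lowest in P2- (0.464 to 0.489) and overlapped between the other groups (0.495 to 0.611).

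Per kilobase of exonic length, Cdk4 and Ccnd2 were the most abundant of the 8 genes. Cdk4 was at 78.1 to 85.2 RPKM and Ccnd2 at 69.5 to 88.5 RPKM as group means, Cdk6 at 44.3 to 49.4, Cdk2 at 21.0 to 24.1 and Ccnd3 at 14.0 to 28.7 RPKM. Ccnd1 (6.25 to 13.8 RPKM), Ccne2 (6.87 to 11.9) and Ccne1 (2.61 to 5.90) were the lowest. Ccnd3 passed Cdk2 in P2+ PreMegEs (28.7 ± 1.38 against 24.0 ± 0.865 RPKM, SD, n = 3), where no library overlapped, and lay below it in P2- (14.0 ± 0.602 against 21.0 ± 0.337) and in RUNX1C KO PreMegEs (17.8 ± 0.264 against 24.1 ± 1.45), while both overlapped in WT PreMegEs (21.4 ± 1.47 against 22.7 ± 1.76). With the counts of Ccnd3-ps added over the same length, Ccnd3 was above Cdk2 in each group, at 23.8 ± 0.606 RPKM in P2-, 30.0 ± 0.605 in RUNX1C KO, 34.8 ± 2.28 in WT and 48.0 ± 1.97 in P2+ PreMegEs (SD, n = 3 each). The place of Ccnd3 below Cdk2 thus turns with the counting of this copy. It can also depend on the length used, as Ccnd3 has 8775 exonic bases and 2113 in its longest protein-coding transcript. Other lengths were not tried for the order of Ccnd3 and Cdk2. These are levels of RNA, and levels of the proteins and kinase activity were not measured. In RNA of sorted cells, fewer cells that express a gene and less RNA per cell cannot be told apart.

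Promoter sequences of the members were compared for 3 short motifs, and 5 are shown: those of Ccnd3 and Ccne1, which had the largest fold changes between P2+ and P2- among the members with an entry, and those of Cdk2 and Cdk4, which held E2F or RUNX matches. The set of RefSeq starts used here (GRCm38.p6) held 5 of the 8 genes, with 2 starts for Ccnd3. Ccnd1, Ccnd2 and Ccne2 had no entry in this set, which does not mean that RefSeq lacks them. The 250 bases before each start were searched on both strands for TGTGGT (the RUNX core), TTCCCGC or TTGGCGC (E2F) and CACGTG (E-box, which reads the same on both strands). The motifs do not overlap each other in these windows. Capitals mark each match, and the sequences run 5′ to 3′ on the strand of the gene.
Ccnd3, first start, chr17:47504801-47505050, plus strand: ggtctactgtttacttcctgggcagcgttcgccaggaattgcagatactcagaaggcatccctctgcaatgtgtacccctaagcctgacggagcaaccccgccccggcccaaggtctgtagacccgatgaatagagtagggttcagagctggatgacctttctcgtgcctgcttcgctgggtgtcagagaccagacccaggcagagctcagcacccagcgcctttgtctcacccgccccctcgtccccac
Ccnd3, second start, chr17:47593217-47593466, plus strand: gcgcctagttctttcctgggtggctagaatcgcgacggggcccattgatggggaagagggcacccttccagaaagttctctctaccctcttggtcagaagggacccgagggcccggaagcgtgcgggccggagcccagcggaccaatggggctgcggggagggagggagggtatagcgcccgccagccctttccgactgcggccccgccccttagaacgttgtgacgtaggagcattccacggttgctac
Ccne1, chr7:38107491-38107740, minus strand: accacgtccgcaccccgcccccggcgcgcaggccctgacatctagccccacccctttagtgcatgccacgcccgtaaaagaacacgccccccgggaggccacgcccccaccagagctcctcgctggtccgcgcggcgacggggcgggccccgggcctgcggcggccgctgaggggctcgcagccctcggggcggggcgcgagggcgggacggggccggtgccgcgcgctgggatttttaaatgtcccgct
Cdk2, chr10:128705052-128705301, minus strand: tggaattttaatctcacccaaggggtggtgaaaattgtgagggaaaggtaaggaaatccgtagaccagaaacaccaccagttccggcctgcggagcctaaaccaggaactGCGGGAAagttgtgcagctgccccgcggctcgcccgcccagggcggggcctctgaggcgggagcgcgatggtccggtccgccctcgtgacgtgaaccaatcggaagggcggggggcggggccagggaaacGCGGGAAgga
Cdk4, chr10:127063285-127063534, plus strand: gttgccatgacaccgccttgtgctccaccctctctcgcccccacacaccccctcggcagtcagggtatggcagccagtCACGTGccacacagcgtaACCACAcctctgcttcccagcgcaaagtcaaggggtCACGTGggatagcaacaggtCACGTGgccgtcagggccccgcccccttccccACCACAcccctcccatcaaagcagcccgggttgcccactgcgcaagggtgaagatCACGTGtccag

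The windows of Ccnd3 and Ccne1, whose RNA moved in opposite directions between P2+ and P2- PreMegEs, held none of these letters. The window of Cdk2 held 2 E2F matches, which begin 140 and 10 bases before the start. The window of Cdk4 held 4 E-box matches and 2 RUNX matches, the latter beginning 154 and 66 bases before the start, and that of Cdk6 (not shown) held 1 E-box match. Of 32851 windows of the same length in the table, 14.0% held a RUNX match, 5.62% an E2F match and 6.02% an E-box match. These are matches of letters only.

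Genes that act on the same kinases were described from lists, whose counts between P2+ and P2- PreMegEs stand against 20.1% of all genes higher and 17.0% lower in P2+. Of the 5 CDK inhibitors tested, 3 were higher and 0 lower (median log2 fold change 0.92, against -0.02 over all genes). They were Cdkn1c (p57) and 2 of the INK4 inhibitors, which bind CDK4 and CDK6. Cdkn1c was low and rose from 2.49 to 5.70 CPM (1.21 on the log2 scale, standard error 0.34, edgeR adjusted p = 0.0219). Of the INK4 inhibitors Cdkn2c rose from 49.2 to 94.9 CPM (0.96, standard error 0.12) and Cdkn2d from 44.5 to 83.6 CPM (0.92, standard error 0.13). Without both libraries of replicate 2 Cdkn2c (1.11) and Cdkn2d (0.85) were called and Cdkn1c was not (0.89, edgeR adjusted p = 0.103). The same 3 inhibitors were higher in P2+ than in WT PreMegEs (on the log2 scale 1.07, 0.48 and 0.55), where 9.45% of all genes were, Cdkn2c was lower in P2- than in WT (-0.47), where 9.60% were, and the median of the 5 between RUNX1C KO and WT PreMegEs was -0.25. Among 13 pocket proteins and E2F factors, P2+ exceeded P2- for 4 and fell short for 2 (median -0.02), a share called near the 37.1% of all genes. E2f7, a repressor among the E2F factors, rose by 1.58 (standard error 0.14) and E2f2 by 0.57, and Rbl1, which encodes the pocket protein p107, rose by 0.56, while E2f6, another repressor, fell by 0.52.

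Among the genes that set or remove phosphate on the kinases, 2 of 7 rose and 1 fell from P2- to P2+, again near the 37.1% of all genes called. Wee1, which encodes an inhibitory kinase of CDK1 and CDK2, rose by 0.62 on the log2 scale (standard error 0.14), and Cdc25b, a phosphatase gene, by 0.30. Cdc25a, whose phosphatase activates CDK2, fell by 0.35 (standard error 0.08, edgeR adjusted p = 0.0104). Of 9 genes for the turnover of cyclins and CDK inhibitors, 2 were higher (Usp2, 1.01, from 2.35 to 4.69 CPM, and Cks1b, 0.55) and Fbxo31 was lower (-0.40), a share below the 37.1% of all genes. The counts of these 3 lists are thus no result about the lists. Without both libraries of replicate 2 Usp2 was not called (0.87, edgeR adjusted p = 0.0930), and the genes higher and lower numbered 5 and 2 of the 13, 3 and 1 of the 7 and 2 and 1 of the 9. USP2 removes ubiquitin from cyclin D1, and FBXO31 is known to direct its degradation.

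The cyclins of S and M phase and their kinase moved together with Ccnd3 between P2+ and P2- PreMegEs. All 4 genes tested of this list of 5 were higher in P2+, with a median log2 fold change of 0.87 (20.1% of all genes were higher), and all 4 were called without both libraries of replicate 2 (median 0.89). Ccna2, cyclin A2, which follows the E cyclins on CDK2, rose from 159 to 352 CPM (1.16, standard error 0.13, edgeR adjusted p = 0.000167). Ccnb1 rose by 0.88, Ccnb2 by 0.86 and Cdk1 by 0.79. Against WT, 3 of the 4 were higher in P2+ (Ccna2 by 0.78), as were 9.45% of all genes, and 2 were lower in P2- (Ccna2 at -0.37 and Ccnb2 at -0.53), as were 9.60%. Between RUNX1C KO and WT only Cdk1 of the 4 was called (-0.36), where 8.76% of all genes were lower. Of 14 proliferation markers, 6 rose, 0 fell and 8 were not called from P2- to P2+ (median 0.10). Those that rose included Top2a (0.96), Mki67 (0.78), Tyms (0.62) and Rrm2 (0.59). Without both libraries of replicate 2, 6 rose and 1 fell (median 0.14). Between RUNX1C KO and WT PreMegEs the median of the 14 was -0.04.

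The groups also differed in markers of the lineages the cells give rise to, and in those of other cells. Summed over 16 erythroid markers, the CPM lay between 6215.7 and 7027.73 in P2-, 5965.3 and 6665.87 in RUNX1C KO, 3598.92 and 4105.89 in WT and 1517.85 and 1732.97 in P2+ libraries. Over 13 megakaryocyte markers it lay between 418 and 524 in P2-, 847 and 885 in RUNX1C KO, 1124 and 1243 in WT and 1703 and 2349 in P2+ libraries. The order of the megakaryocyte sums was thus that of the Ccnd3 means, without overlap. Between P2+ and P2- PreMegEs 12 of the 15 erythroid markers tested were lower (17.0% of all genes were) and 12 of the 13 megakaryocyte markers were higher (20.1% of all genes were), and without both libraries of replicate 2 these were 11 of 13 tested and 12 of 13. The sum of 10 neutrophil and monocyte markers was 27.0 to 69.6 CPM in P2-, 30.5 to 68.9 in RUNX1C KO, 85.4 to 208 in WT and 117 to 263 in P2+ libraries, and 5 of 8 tested were higher in P2+ than in P2- (3 of 4 tested without both libraries of replicate 2). The sum of 9 lymphoid markers was 17.5 to 27.9 CPM in P2-, 40.9 to 51.0 in RUNX1C KO, 47.2 to 62.3 in WT and 43.1 to 120 in P2+ libraries, with Cd8a at 0 in all 4 groups and Cd3e at 0 in P2- and P2+, and 4 of 6 tested were higher in P2+ than in P2- (2 of 2 tested without both). That of 5 mast cell and basophil markers was 14.2 to 18.6 CPM in P2-, 24.8 to 32.0 in RUNX1C KO, 16.4 to 23.1 in WT and 34.5 to 46.9 in P2+ libraries, with Cma1 at 0 in all 4 groups, Prss34 also in RUNX1C KO and Mcpt8, Fcer1a and Prss34 also in P2-, where the sum is that of Cpa3. The part of these cells in the values of the cyclins was not tested.

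For each member called in any comparison, the 2 genes most like it were taken by Pearson's r of log2 CPM over the 12 libraries, among 9522 genes with a mean of at least 10 CPM. The libraries fall into the 4 groups, so r largely restates the group means. They were Itga6 (0.99) and Epb4.1l2 (0.99) for Ccnd3, Ets1 (0.97) and Soat1 (0.95) for Ccnd1, and Ccdc93 (0.96) and Herc4 (0.95) for Ccnd2. For Ccne1 they were Gm11868 (0.96) and Cdc25a (0.94), for Ccne2 Yipf6 (0.89) and Agps (0.88), and for Cdk2 Stxbp2 (0.89) and Acp2 (0.89).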

How the data were processed

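RNA was sequenced from 12 libraries of sorted mouse PreMegEs, with 3 libraries for each of WT, P2-, P2+ and RUNX1C KO, on strand-specific poly(A) libraries made from 50 ng of RNA. Groups were taken from the sample labels. The deposited values are raw read counts per gene and library, which the authors made by aligning paired reads to GRCm38 with Bowtie2 (version 2.21 in the submitters' processing notes) and counting them on Ensembl genes with featureCounts. Whether the counting used the strand, and how reads with several places were counted, is not given in the sources used here.

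All further values were computed from these counts in R 4.3.3 with edgeR 4.0.16. In each comparison a gene entered the test if 3 or more of the 6 libraries reached 1 CPM. Libraries were scaled by TMM, and a two-sided quasi-likelihood F-test with group as the single factor was adjusted by Benjamini-Hochberg over all genes tested (called at 0.05). Standard errors were derived from the F statistic. The fit was tested on simulated counts. The limit of 3 counts covers counting error only. RPKM used the exonic length over all transcripts in GENCODE vM21 (GRCm38), which matched 40254 of 41128 identifiers. Log2 ratios used a pseudocount of 0.1 CPM and, with the shares, exact permutation tests in scipy 1.17.1. Copies of the members were sought with blastn 2.17.0 (at least 90% identity over at least 150 bases).

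The members and the gene lists were chosen with earlier results of these data known. Other genes are named where they belong to a cell cycle list and were called between P2+ and P2- PreMegEs, at most 4 per list by size of the fold, or where they correlated best with a member. Sums over marker lists, Kit, Itga2b and Ccnd3-ps were added after their values were seen. Same-numbered libraries of P2+ and P2- deviated together from their group means over all genes (correlations of 0.402, 0.590 and 0.432), so their numbers pair them, while in each of the other comparisons at least 1 pair had a correlation under 0.1. The alternatives were DESeq2 1.42.0 and its size factors, library totals without TMM, edgeR's exact test, no filter on low counts, all 12 libraries in the fit, the replicate block, a minimum of 2-fold, leaving out libraries, other lengths, another pseudocount and, chosen after seeing the data, the longest protein-coding transcript, the sum of Ccnd3 and Ccnd3-ps, and shares, ratios and lists without both libraries of replicate 2 (genes with 1 CPM in 3 of 4 libraries).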

Additional observations from a re-analysis of the deposited data

How the results depend on the processing

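Of 48 results (8 genes in 6 comparisons), 18 were called. Of these, 4 reached the 2-fold minimum. That minimum aside, 10 kept their direction and their call under all alternatives run, including each library left out in turn, 13 did so when leaving out 1 library is set aside too, and 24 of the 30 results not called stayed so throughout. The 8 calls that were lost without that minimum are named in the report with the libraries they rest on. The cause of each change below was not tested, except that the 2-fold minimum calls fewer genes by construction.

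With the 2-fold minimum, 1626, 497, 597, 436, 64 and 1454 genes were called (P2+ against P2-, P2+ against WT, P2- against WT, RUNX1C KO against WT, P2- and P2+), and of the members 1 between P2- and WT and 0 in P2+ against WT and in the 3 comparisons of RUNX1C KO. RUNX1C KO against WT gave 1271 genes with all 12 libraries in the fit. RUNX1C KO against P2- was the least settled comparison, with 490 genes called by DESeq2, 359 by edgeR's exact test, 465 without a filter on low counts, 325 with all 12 libraries in the fit and 102 with the replicate block, in which 0 members were called, against 203 genes and 1 member. Without a filter 69.9% of its calls were higher, against 82.8%. With library totals in place of TMM, 548 genes exceeded WT in P2- and 1433 fell short of it, against 875 and 1226. The replicate block changed no other member's call than those of Ccnd2 and Ccne2 (P2+ against P2-), Ccnd3 (RUNX1C KO against P2-) and Ccne2 (RUNX1C KO against WT, 0.40, edgeR adjusted p = 0.0227, range 0.0157 to 0.246).

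With 1 library left out, the genes called numbered 1213 to 2447 in P2+ against WT (1230 and 1213 without WT replicate 1 and 2), 1068 to 2189 in P2- against WT (1068, 1121 and 1383 without WT replicate 1, 2 and 3), 1194 to 1648 in RUNX1C KO against WT (1194 without RUNX1C KO replicate 3) and 42 to 409 in RUNX1C KO against P2-. In the last, 114 were called without P2- replicate 1, 409 without P2- replicate 2 and 54, 42 and 64 without RUNX1C KO replicates 1, 2 and 3. Members called were 0 to 1 in RUNX1C KO against P2- and 2 to 5 in RUNX1C KO against P2+ (2 without RUNX1C KO replicate 1 or 3).

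The results that changed sign were not called in either direction (values are log2 fold changes). For RUNX1C KO against P2+, Cdk4 was at 0.0017 with DESeq2's size factors, 0.0019 with DESeq2 and 0.0097 without a filter, and Cdk2 at 0.0029 without a filter. With 1 library left out Cdk4 ran from -0.049 to 0.038 and Cdk2 from -0.048 to 0.036 in that comparison. Cdk6 ran from -0.095 to 0.15 in P2+ against P2-, -0.21 to 0.021 in P2+ against WT, -0.22 to 0.0012 in P2- against WT and -0.052 to 0.15 in RUNX1C KO against WT. Cdk4 ran from -0.056 to 0.014 in P2+ against WT and -0.058 to 0.0037 in RUNX1C KO against WT, Ccne1 from -0.33 to 0.098 in P2+ against WT, and Ccnd2 from -0.053 to 0.092 and Ccne2 from -0.076 to 0.18 in RUNX1C KO against P2-.

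Shares of D cyclin RPKM depended on the lengths, and no difference in a share changed direction under these lengths. With the longest transcripts P2+ less P2- was 4.42 points for Ccnd1 and 15.5 for Ccnd3, and RUNX1C KO less P2+ was -3.93 for Ccnd1. With the longest protein-coding transcripts P2+ less P2- was 3.03, -21.8 and 18.8 points for Ccnd1, Ccnd2 and Ccnd3, P2+ less WT was 1.10, -13.1 and 11.9, and RUNX1C KO less P2+ was -2.71, 16.9 and -14.2. For Ccnd3 alone, P2- less WT was -6.81 and RUNX1C KO less P2- was 4.58. With Ccnd3-ps added, P2+ less P2- was 15.4 points for Ccnd3. The other 150 values of shares and all 215 of ratios moved by less than 1 SD. Ccne1, with 65 to 234 reads per library, was the member with the fewest reads.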
